A study of Mus musculus with 3 samples.

Results

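Single mouse T cells were examined that carried transcripts of both co-receptors, Cd4 and Cd8a, while the authors' annotation gave them a Cd4 identity. Such cells are called Cd4-identity Tdp cells here (Tdp is the annotation's name for double-positive T cells). They were chosen from 2 columns of that annotation, Cd4 in the identity column and Tdp in the class column, and they number 93 of 5564 annotated cells. The study implanted B16F10, a transplantable melanoma line, in Matrigel under the skin of mice, and injected purified CD45.1 CD4+ T cells or CD45.2 CD8+ T cells 1 day later. Tumors were taken on day 11 from 10 mice and pooled, and the treatment label reads untreated. From the pool, CD4+ and CD4+CD8+ T cells with the CD45.1 allele, and CD8+ and CD8+CD4+ T cells with the CD45.2 allele, were sorted, given a hashtag each, mixed in about equal numbers and read as 1 library from the 5′ end of transcripts.

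The annotation also held 2477 cells of the Cd4 class, 313 Cd8-identity Tdp cells and 2681 cells of the Cd8 class. All 4 classes come from the same pool of tumors and the same library. The annotation numbers the hashtags 1 to 4, and nothing in the sources ties a number to a sorted population. No source used here says how the identity was called. With 1 library from 1 pool, no test between classes was possible. Values are therefore given with exact 95% intervals, which cover counting error only and say nothing of the spread between mice.

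CD4 and CD8 are the co-receptors with which T cells read peptide on MHC class II and class I molecules, and mature T cells normally keep only one of them. CD4 T cells act mainly as helpers, giving help through CD40 ligand among other signals, or as regulatory T cells, whose lineage factor is Foxp3. CD8 T cells kill target cells with granules that hold perforin and granzymes. Cytotoxic programs are also known in some CD4 T cells, and mature cells with both co-receptors have been described in tumors and other inflamed tissue.

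A cell enters the Tdp class only with a UMI of both genes (a UMI, or unique molecular identifier, stands for 1 captured RNA molecule), so the presence of Cd4 and Cd8a is the rule itself and not a result. Of Cd4 the 93 cells held 199 UMIs, with a median of 2 and at most 6 in a cell, and 33 cells sat at the threshold of 1 UMI. Of Cd8a they held 180 UMIs, with a median of 1 and at most 8, and 62 cells sat at 1 UMI. Thus most of the cells rest on a single Cd8a molecule, while 25 cells held 3 or more. At least 2 UMIs of both genes were present in 17 of 93 cells (18.3%, 11.0 to 27.6).

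Cd8b1 encodes the CD8 beta chain. It is not one of the 2 genes that define the Tdp class, but no source used here says whether it entered the identity call. A Cd8b1 UMI was found in 53 of 93 Cd4-identity Tdp cells (57%, 46.3 to 67.2), against 290 of 2477 cells of the Cd4 class (11.7%). The Cd4 class holds 3 cells with both Cd4 and Cd8a, so its own Cd8b1 share is partly set by which cells the Tdp class took. In 85 cells with myeloid markers and no Cd3 UMI, which should lack the gene, Cd8b1 was seen in 5 (5.88%) at a median of 6885 UMIs a cell, against a median of 4668 in the Cd4-identity Tdp cells. Cd8b1 reached 3 or more UMIs in 39 of the 93 cells and 33 UMIs in the highest, and 40 cells had none. The cells with more Cd8a also carried Cd8b1 more often: 27 of 31 cells with 2 or more Cd8a UMIs had Cd8b1, against 26 of 62 cells with a single one. These counts were not compared at equal depth. In 36 cells (38.7%, 28.8 to 49.4) the whole CD8 evidence was 1 Cd8a UMI with no Cd8b1.

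The lineage factors of the CD4 and CD8 fates were both found. Runx3, the CD8-lineage factor, had a UMI in 48 of 93 Cd4-identity Tdp cells (51.6%), against 37.0% of the Cd4 class. Zbtb7b, the gene of the CD4-lineage factor ThPOK, had one in 15 of 93 cells (16.1%), against 18.9% of the Cd4 class. Both were seen in 6 of the 93 cells (6.45%), against 8.20% of the Cd4 class. With every cell thinned to 2000 UMIs, Runx3 was at 23.6% in Cd4-identity Tdp cells and 22.3% in the Cd4 class, so the gap in the unthinned Runx3 share was not seen at equal depth. Zbtb7b at that depth was at 3.37% (3 of 89 cells) and 10.2%. Neither factor is limited to T cells, since the myeloid-marker cells had Runx3 in 35.3% and Zbtb7b in 25.9%.

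Depth and receptor genes set limits on every count below. The 93 cells held 574490 UMIs, from 671 to 17836 a cell with a median of 4668, against a median of 3478 in the Cd4 class and 4981 in the Cd8-identity Tdp cells. A T cell normally uses 1 rearranged T cell receptor beta chain, whose variable part comes from a Trbv gene. More than 1 Trbv gene with 2 or more UMIs apiece was found in 36 of the 93 cells (38.7%, 28.8 to 49.4), against 9.29% of the Cd4 class and 19.2% of the Cd8-identity Tdp cells. In those 36 cells the first Trbv gene had 3 to 38 UMIs (median 9) and the second 2 to 16 (median 4), and the second reached 5 or more in 14 cells. In 9 of the 36 cells 3 or more Trbv genes passed. In 2 cells the first and second genes were Trbv13-1 and Trbv13-2, near-identical copies between which assignment is uncertain, and in 1 of these no further Trbv gene passed. The 36 cells are called 2-Trbv cells below. They were deeper, with a median of 8246 UMIs against 4198 in the other 57.

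The 2-Trbv cells differed from the other 57 in their co-receptors. Cd8b1 was found in 30 of 36 of them (83.3%), against 23 of 57 without them (40.4%, 27.6 to 54.2). Runx3 was found in 27 of 36 (75.0%), against 21 of 57 (36.8%), and these shares are not given at equal depth. Cd40lg, the helper ligand, was found in 23 of 36 (63.9%), against 12 of 57 (21.1%), but at 2000 UMIs a cell the shares were 19.4% and 18.9%. Among the 57 cells, at least 2 UMIs of both Cd4 and Cd8a were found in 6, and 30 (52.6%) had 1 Cd8a UMI and no Cd8b1. The 2-Trbv cells made up 17 of the 31 cells with 2 or more Cd8a UMIs and 19 of the 62 with a single one. Without them Cd8b1 was in 10 of 14 cells with 2 or more Cd8a UMIs, against 13 of 43 with a single one. Shares of cells in the main states below are given with and without the 2-Trbv cells, and finer counts cover all 93 cells unless stated otherwise. Whether these cells are doublets was not tested.

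**Figure D1:**
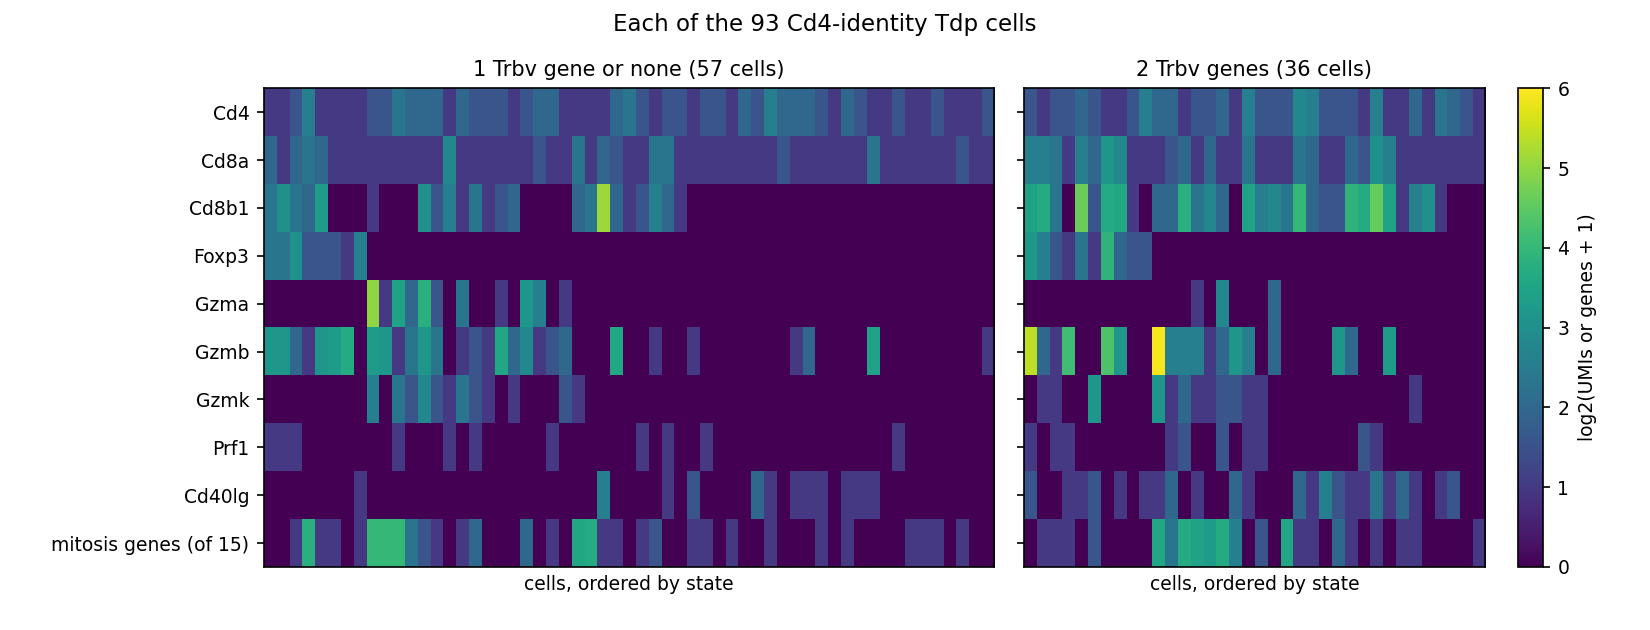
Each column is 1 of the 93 Cd4-identity Tdp cells and each row a gene, coloured by log2(UMIs + 1), with the number of mitosis genes detected in the bottom row; the 57 cells with at most 1 Trbv gene are on the left and the 36 2-Trbv cells on the right. Many of the Foxp3 cells carry Gzmb and none of them carries Gzma, and Cd8b1 is absent from 34 of the 57 cells on the left but from only 6 of the 36 on the right.

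Foxp3, the lineage factor of regulatory T cells, had a UMI in 18 of the 93 cells (19.4%, 11.9 to 28.8), against 555 of 2477 cells of the Cd4 class (22.4%). The difference was -3.05 percentage points, with an interval of -10.0 to 6.27 that holds 0. Without the 2-Trbv cells 8 of 57 (14.0%) had Foxp3, against 22.2% of the Cd4 class, a difference of -8.17 points (-15.2 to 3.24). In matched cells, described with the granule genes below, the difference was 1.43 points, so its sign was not settled. In the myeloid-marker cells, which should lack it, Foxp3 was at 1.18%. The 18 cells held 1 to 14 Foxp3 UMIs (median 2.5), and 15 of them held at least 2. All 18 also carried at least 4 of the 16 other regulatory genes in the table, with a median of 6 and at most 8. The 75 cells without Foxp3 had a median of 2, but 21 of them (28.0%) carried at least 4, also with at most 8. Median depth was 6216 UMIs in the Foxp3 cells and 4630 in those without. The 8 Foxp3 cells that were not 2-Trbv cells carried 5 to 7 of them, also with a median of 6.

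The Foxp3 cells carried the regulatory genes at shares near those of Foxp3 cells in the Cd4 class, with a few exceptions. Tnfrsf18, which encodes GITR, was in 100% of the 18 cells and 92.6% of the 555. Ctla4, an inhibitory receptor central to regulatory T cells, was in 88.9% and 70.6%. Ikzf2, which encodes Helios, was in 66.7% and 83.8%. Il2ra, the interleukin-2 receptor alpha chain, was in 50.0% and 58.7%. Ccr8, a chemokine receptor of tumor regulatory T cells, was in 1 of 18 cells and 12.8% of the 555. With 18 cells the intervals on all of these are wide, and the median depth was 6216 UMIs in the Foxp3 Tdp cells against 3345 in the Foxp3 cells of the Cd4 class. In the 8 Foxp3 Tdp cells that were not 2-Trbv cells, Ctla4 was in 7, Il2ra in 4 and Ikzf2 in only 3, at a median of 3670 UMIs.

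CD8 transcripts were well represented in the Foxp3 cells. Their Cd4 counts ran from 1 to 5 UMIs with a median of 1.5, their Cd8a counts from 1 to 8 with a median of 3, and their Cd8b1 counts from 0 to 24 with a median of 4. Cd8b1 was present in 13 of 18 Foxp3 cells (72.2%), against 40 of 75 cells without Foxp3 (53.3%), a difference of 18.9 points with an interval of -6.63 to 37.8. The difference was 25.8 points without 2-Trbv cells (-9.09 to 52.5), and 29.7 with 2 UMIs asked of each gene (2.15 to 48.7). Thinned to 2000 UMIs it was 33.2 with one random seed (0.322 to 51.0) and 17.5 with another (-12.8 to 41.2). It was 12.2 without hashtag number 1, 29.8 without number 2 and 9.54 without number 4. In the Cd4 class 18.4% of Foxp3 cells and 9.78% of the others had Cd8b1. Gzmb was in 13 of the 18 Foxp3 cells with up to 42 UMIs, Prf1 in 6, and Gzma in 0. In Foxp3 cells of the Cd4 class Gzmb was about as frequent (66.8%), and Prf1, the gene of perforin, was in 4.86%, against 33.3% in the Foxp3 Tdp cells. Each of the 6 Prf1 cells held 1 Prf1 UMI. Of these, 4 belonged to the receptor group described next, and the others were 2-Trbv cells. The Prf1 shares are not given at equal depth, and the Foxp3 Tdp cells were the deeper ones (median 6216 against 3345 UMIs).

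A group of 6 of the 18 Foxp3 cells shared receptor genes. They held at least 2 UMIs of Trbv12-2 together with Trav13-2, an alpha-chain variable gene. The group was picked out after its values were seen, so it is a description, and shared variable genes do not show a shared clone. Trbv12-2 has near-identical copies, so assignment among them is uncertain. The 6 cells held 3 to 14 Foxp3 UMIs, 4 to 12 Cd8b1 UMIs, 3 to 42 Gzmb UMIs and 1 or 2 Cd4 UMIs. All 6 carried Foxp3, Cd8b1, Ctla4, Gzmb, Nkg7 and Ccl5, and 4 carried Prf1. Of the 6, 2 had hashtag number 2 and 4 had number 4, and 3 were 2-Trbv cells.

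The same Trbv12-2 and Trav13-2 pair was found in 10 cells of the Cd4 class, 1 Cd8-identity Tdp cell and 6 cells of the Cd8 class. All 10 cells of the Cd4 class had Foxp3, Cd8a and Cd8b1, and 0 of the 10 had a Cd4 UMI. Thus 16 cells with this pair and Foxp3 carried CD8 transcripts under a Cd4 identity, in 2 classes that the Cd4 UMI alone separates. The 6 cells of the Cd8 class had Cd8a and Cd8b1 in 6 of 6 and Foxp3 in 0 of 6. Leaving the 6 Tdp cells out of the 18 Foxp3 cells leaves 12, of which 7 had Cd8b1. Among the 8 Foxp3 Tdp cells that were not 2-Trbv cells, 5 had Cd8b1, and 3 of those 5 held this pair.

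Granule genes set the Cd4-identity Tdp cells apart from the Cd4 class more than Foxp3 did. Of 9 granule genes listed, 6 were in the table: Gzma, Gzmb, Gzmc, Gzmf and Gzmk, which encode granzymes, and Prf1. A cell with at least 2 of them was called a granule cell. There were 33 such cells of 93 (35.5%, 25.8 to 46.1), against 302 of 2477 in the Cd4 class (12.2%). The difference was 23.3 percentage points (14.2 to 33.5). Without 2-Trbv cells the shares were 33.3% (19 of 57) and 11.6%, and 0 of 85 myeloid-marker cells were granule cells.

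The granule difference shrank with depth but did not end. With every cell thinned to 2000 UMIs the granule shares were 19.1% and 7.31%, 11.8 points apart (4.88 to 21.2). Against 279 cells of the Cd4 class, matched to the Tdp cells by UMI total and hashtag number and each with a Cd4 UMI, the granule shares were 35.5% and 20.1%, 15.4 points apart (5.10 to 26.4). In the same comparison without 2-Trbv cells the difference was 12.8 points (0.592 to 26.5). Of the 19 granule Tdp cells in it, 11 belonged to the Trbv29 group described below. Leaving out cells with 2 or more UMIs of the macrophage, B cell or melanoma markers gave 36.4% in 88 Tdp cells and 11.9% in the Cd4 class.

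By gene, Gzmb was the most frequent, in 47 of the 93 cells (50.5%) against 34.8% of the Cd4 class. Gzmk was in 25 (26.9%) against 12.6%, Prf1 in 21 (22.6%) against 3.67%, and Gzma in 14 (15.1%) against 7.19%. Gzmc, seen in 1.98% of the Cd4 class, was in 0 of 93 (exact interval up to 3.89%), and so was Gzmf. Without 2-Trbv cells Gzmb was in 29 of 57, Gzmk in 12, Prf1 in 11 and Gzma in 11. These shares by gene are not given at equal depth, and the Tdp cells were deeper (median 4668 against 3478 UMIs in the Cd4 class). The granule genes came in different pairs. All 14 Gzma cells had Gzmb and 9 had Gzmk, but only 2 had Prf1, while 13 of the 21 Prf1 cells had Gzmb. Of the 14 Gzma cells 0 had Foxp3.

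The levels told less than the shares. Prf1 averaged 41.9 CPM (the UMIs of a gene scaled to the UMI total of the summed cells) in Cd4-identity Tdp cells and 12.2 CPM in the Cd4 class. The other granule genes were closer between the classes: Gzmb was at 603 and 675 CPM and Gzma at 156 and 147 CPM. A single cell supplied 34.8% of the 89 Gzma UMIs. The chemokine genes Ccl3 and Ccl4 rested on 1 cell: it held 162 of 166 Ccl3 UMIs and 357 of 369 Ccl4 UMIs, with hashtag number 1, 24 UMIs of Trbv3, 1 Cd4 UMI, 1 Cd8a UMI and no Cd8b1. A Ccl4 UMI was present in 8 of 93 cells (8.60%) against 4.2% of the Cd4 class.

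Receptor genes again marked a group among the granule cells. A single Trbv gene with at least 2 UMIs was found in 46 of the 93 cells, and in 18 of the 46 it was Trbv29 (39.1%, 25.1 to 54.6). In the Cd4 class Trbv29 was the gene in 92 of 1631 such cells (5.64%), in the Cd8-identity Tdp cells in 56 of 245 (22.9%) and in the Cd8 class in 280 of 1897 (14.8%). All 18 Trbv29 Tdp cells also held a UMI of Trav7-4 or Trav5-4, against 3 of the other 28 single-Trbv cells. This group too was picked out after its values were seen, and Trav7 and Trav5 genes have near-identical copies. Of the 18 cells, 16 had hashtag number 2 and 2 had number 4. Within number 2 the Trbv29 share was 66.7% (16 of 24), against 9.13% of the Cd4 class in that number. Without number 2 it was 9.09% (2 of 22), so the high share rests on that hashtag.

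**Figure D2:**
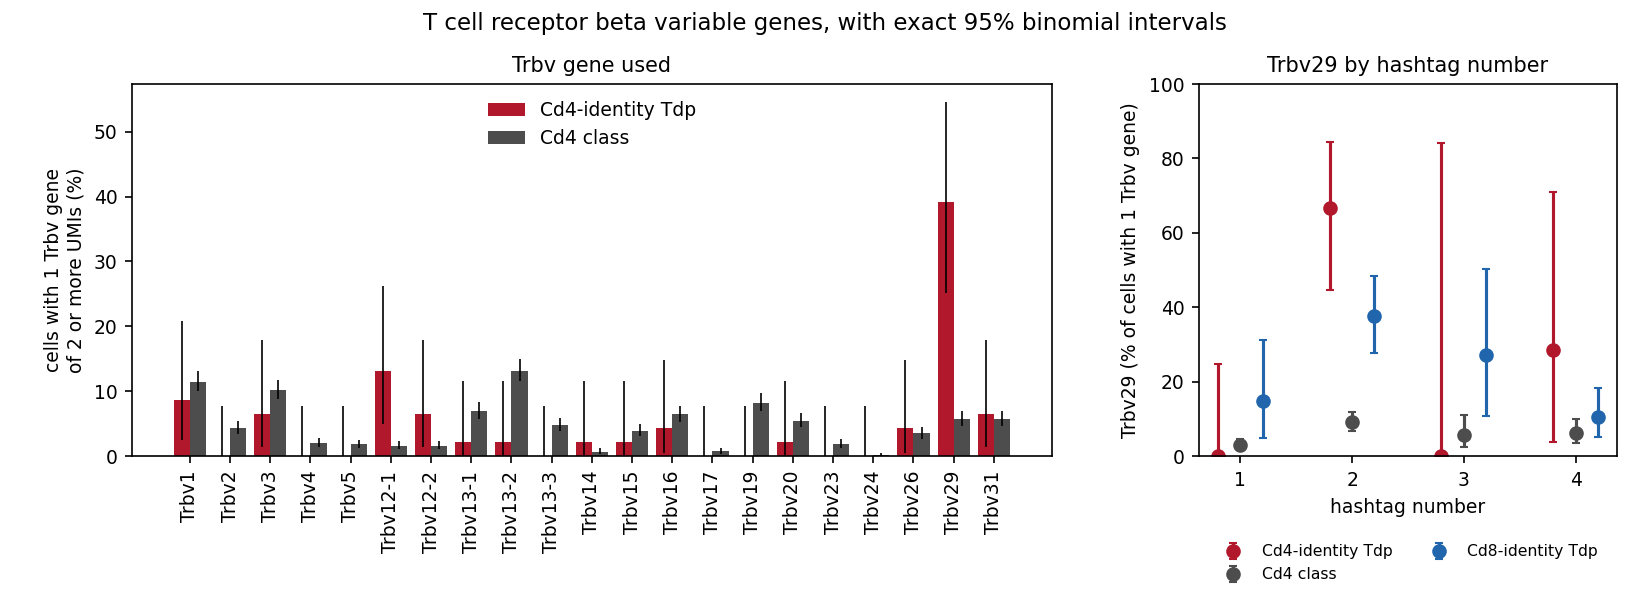
Left, the share of single-Trbv cells that use each Trbv gene in Cd4-identity Tdp cells (red) and the Cd4 class (grey); right, the Trbv29 share by hashtag number with Cd8-identity Tdp cells added in blue. Bars and points are percentages with exact 95% intervals. Trbv29 takes 39.1% of the Cd4-identity Tdp cells against 5.64% of the Cd4 class, and 16 of its 18 cells lie in number 2.

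The 18 Trbv29 cells carried cytotoxic genes and few CD8 UMIs. They held 2 to 5 Cd4 UMIs (median 3), and 15 of the 18 had a single Cd8a UMI. Cd8b1 was in 9 of them. Nkg7, a granule membrane protein gene of cytotoxic cells, and Ccl5, a chemokine gene of effector T cells, were in all 18, with 3 to 25 Nkg7 UMIs and 3 to 129 Ccl5 UMIs. Gzmb was in 13, Gzma in 9, Gzmk in 7 and Prf1 in 5, and 11 of the 18 were granule cells. In the other 28 single-Trbv cells 8 were granule cells, Gzma was in 2 and Gzmk in 5. Cd40lg was in 0 of the 18 and 8 of the 28. Runx3 was in 12 of the 18 and 7 of the 28, and Zbtb7b in 2 and 9. The median depth was 5219 UMIs in the 18 cells and 3768 in the 28.

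Among single-Trbv cells the Trbv29 group held 9 of 11 Gzma cells, 7 of 12 Gzmk cells, 11 of 19 granule cells and 5 of 7 mitosis cells, but 1 of 6 Foxp3 cells. With the Trbv29 cells left out, the granule difference from the Cd4 class was 18.4 points (9.16 to 29.5), at full depth and without matching. Of the 22 granule Tdp cells of 75 that this left, 14 were 2-Trbv cells. A matched comparison without both the Trbv29 and the 2-Trbv cells was not made. Over all 4 classes, 180 single-Trbv cells paired Trbv29 with Trav7-4 or Trav5-4. They spread over all classes: 18 were Cd4-identity Tdp cells, 50 had the Cd8 identity and were Tdp, 58 belonged to the Cd4 class and 54 to the Cd8 class. Tdp cells of either identity made up 37.8% of them (30.7 to 45.3), against 6.07% of 3625 single-Trbv cells with other genes. The cells with the Trbv29 pair were deeper in every class: their median was 5219 UMIs, against 3775 with other genes, in Cd4-identity Tdp cells, 7807 against 4012 in Cd8-identity Tdp cells, 6220 against 3501 in the Cd4 class and 5704 against 4028 in the Cd8 class. The shares in these groups were not compared at equal depth. The 58 cells of the Cd4 class had Cd8b1 in 30 (51.7%) and were granule cells in 38 (65.5%), against 9.89% and 10.8% of the Cd4 class cells with other genes. The 54 of the Cd8 class had Cd8a in 29 (53.7%), against 79.6% of the Cd8 class cells with other genes.

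Cycling cells were called from 15 genes of mitosis, such as Mki67, a proliferation antigen, and Top2a, a topoisomerase of dividing cells. At least 4 of the 15 were detected in 15 of the 93 cells (16.1%, 9.32 to 25.2), against 222 of 2477 in the Cd4 class (8.96%), 7.17 points apart (0.948 to 16.0). The difference was 3.78 points without 2-Trbv cells (-2.54 to 14.8) and 3.84 at 2000 UMIs (-1.31 to 12.1). The order turned round in the matched cells, where 18.6% of the Cd4 class were mitosis cells, a difference of -2.51 points. In the matched comparison without 2-Trbv cells it was -5.42. The myeloid-marker cells were at 7.06%. Most of the 15 cells were far above the threshold: they held 4 to 15 of the genes with a median of 11, and Mki67 was in 14 and Top2a in 13. The other 78 cells split into 41 with none of the 15 genes and 37 with 1 to 3.

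Cycling cells were also the deep cells, with a median of 9146 UMIs against 4381 in the rest. Genes of DNA replication were more often detected in them too, with a median of 7 S phase genes of 14 against 1. In 5 of the 7 mitosis cells that were not 2-Trbv cells the receptor gene was Trbv29. Gzmb was in 12 of the 15 mitosis cells and Gzmk in 11, and Foxp3 in 1. That 1 cell held 13 of the mitosis genes, 2 Foxp3 UMIs, 29 Ctla4 UMIs and UMIs of markers of other cell types, and it was one of the 18 Trbv29 cells.

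**Figure D3:**
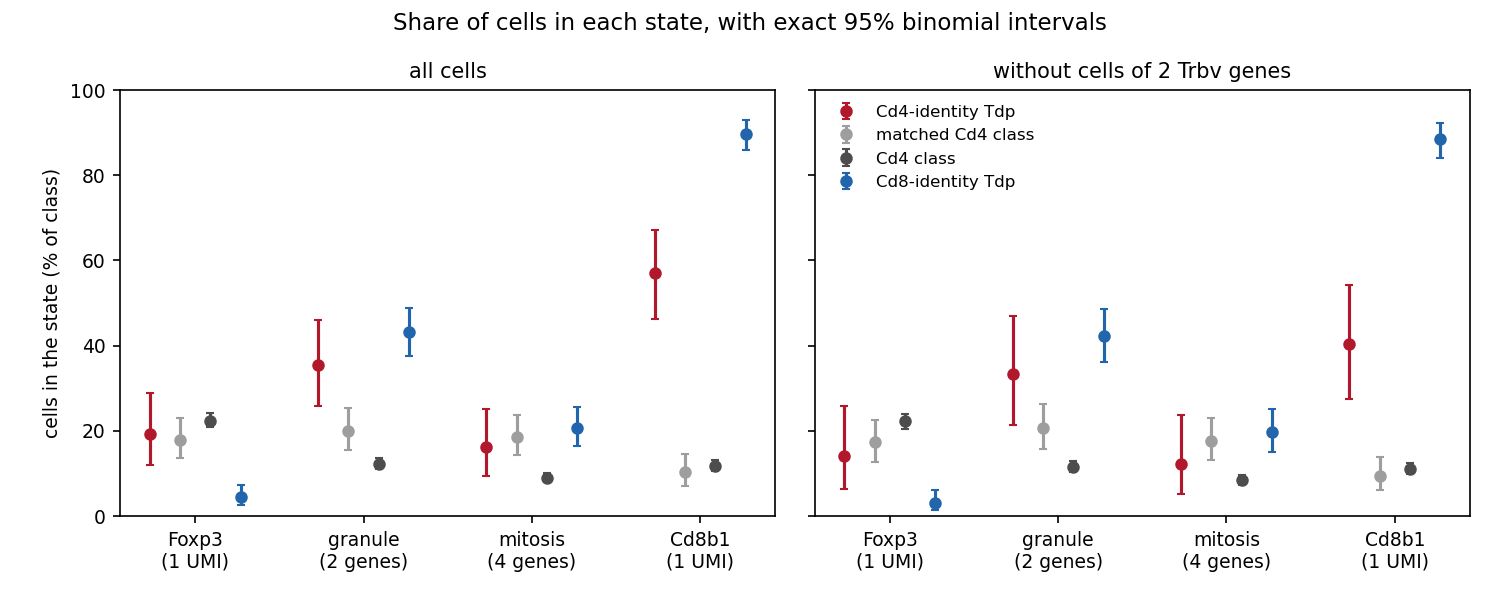
Percentage of cells in the Foxp3, granule, mitosis and Cd8b1 states in Cd4-identity Tdp cells (red), matched Cd4 class cells (light grey), the Cd4 class (dark grey) and Cd8-identity Tdp cells (blue), with exact 95% intervals, for all cells on the left and without 2-Trbv cells on the right. The granule share of Cd4-identity Tdp cells, 35.5%, lies above both sets of Cd4 class cells, the Foxp3 share of 19.4% lies near theirs, and the mitosis share of 16.1% lies between them.

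Within single cells the states occurred in many combinations. No cell held Foxp3, the granule state and the mitosis state at once. The largest set was the 27 cells with none of these 3 states and no Cd8b1, followed by 19 with Cd8b1 alone, 11 with granule genes and Cd8b1, and 7 with granule genes, mitosis genes and Cd8b1. Foxp3 with granule genes and Cd8b1 was found in 6 cells, and Foxp3 with Cd8b1 in another 6. Foxp3 alone, granule genes alone and granule with mitosis genes were found in 4 cells each. Mitosis with Cd8b1 was found in 3 cells, Foxp3 with granule genes in 1, and Foxp3 with mitosis genes and Cd8b1 in 1.

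Granule genes were found more often in mitosis cells than in the rest. Of the 15 mitosis cells 11 were granule cells (73.3%), against 22 of the other 78 (28.2%), 45.1 points apart (17.6 to 63.2). Thinned to 2000 UMIs the shares were 50.0% (5 of 10) and 15.2% (12 of 79), 34.8 points apart (6.81 to 61.9). Without 2-Trbv cells they were 57.1% (4 of 7) and 30% (15 of 50), with an interval of -7.78 to 56.3 that holds 0. All 4 were Trbv29 cells, and the rest of the 11 were 2-Trbv cells. The 2 mitosis cells outside both groups were not granule cells. The Cd4 class showed the same order, with granule genes in 33.8% of its mitosis cells and 10.1% of the rest.

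Granule genes were also found more often in cells with Cd8b1, but not beyond counting error at equal depth or without hashtag number 1. Of the 53 cells with Cd8b1 24 were granule cells (45.3%), against 9 of 40 without (22.5%), 22.8 points apart (3.17 to 39.5). Leaving out hashtag number 1 reduced the difference to 8.24 points (-15.3 to 29.5). Without 2-Trbv cells the shares were 52.2% (12 of 23) and 20.6% (7 of 34), 31.6 points apart (6.45 to 52.8). Thinning left 22.2% and 15.9%, 6.31 points apart with an interval of -10.3 to 22.5. The cells with Cd8b1 had a median of 6837 UMIs, against 3726 without, so depth moved with Cd8b1.

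Foxp3 showed no clear link with the granule state in either direction. Of 18 Foxp3 cells 7 were granule cells (38.9%), against 26 of 75 without Foxp3 (34.7%), 4.22 points apart (-17.5 to 28.8). The difference was 4.85 points without 2-Trbv cells (-22.8 to 38.8) and -5.03 without hashtag number 1. Of the 7 cells with both states, 4 held the Trbv12-2 and Trav13-2 pair and the others were 2-Trbv cells. With 2 UMIs asked of each gene, 0 of 15 Foxp3 cells were granule cells. Foxp3 and mitosis met in 1 cell, so 5.56% of Foxp3 cells were mitosis cells, against 18.7% of the others, a difference of -13.1 points (-24.3 to 8.34). Without 2-Trbv cells the shares were 12.5% (1 of 8) and 12.2% (6 of 49), 0.255 points apart (-15.5 to 35.5). In the Cd4 class the mitosis shares of cells with and without Foxp3 were 5.05% and 10.1%. Intervals of this width allow large differences either way.

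**Figure D4:**
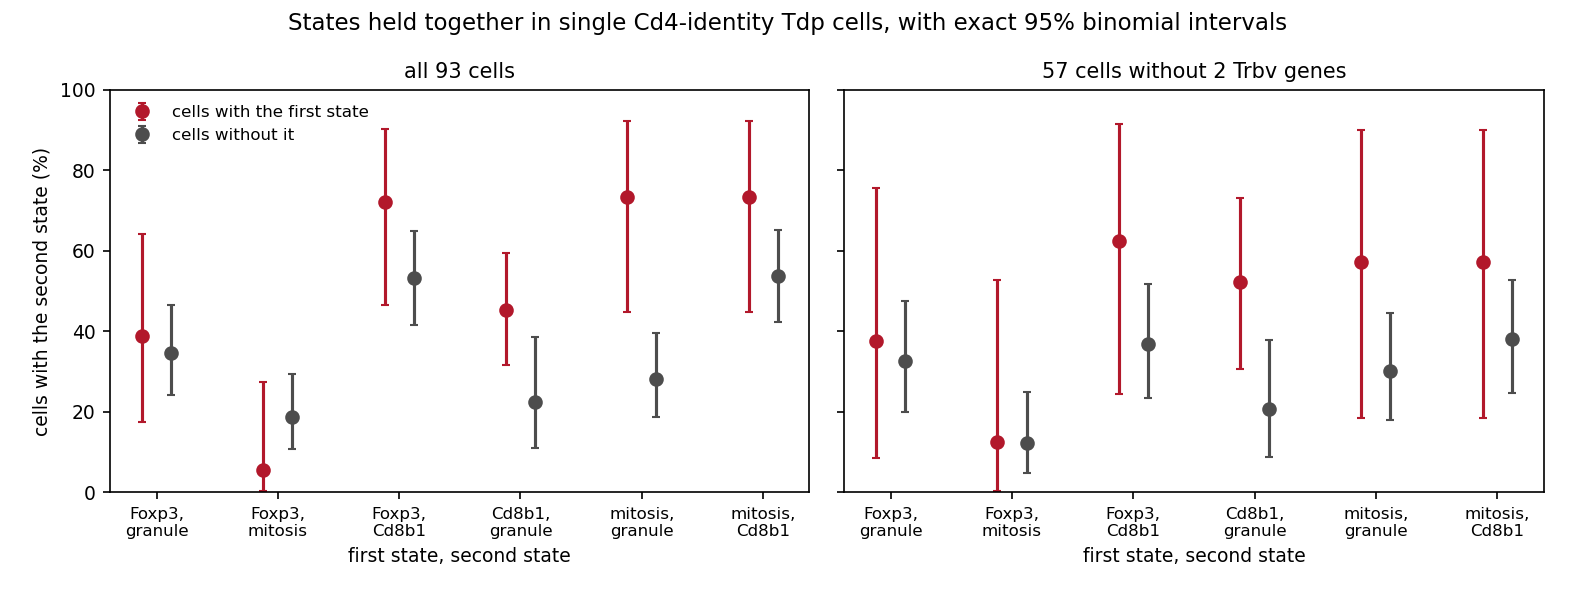
For each pair of states, the percentage of cells with the second state among Cd4-identity Tdp cells that have the first (red) and that lack it (grey), with exact 95% intervals, for all 93 cells on the left and the 57 cells without 2 Trbv genes on the right. Granule genes were found in 73.3% of mitosis cells against 28.2% of the rest on the left, and in 57.1% against 30% on the right.

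The 46 cells with none of the Foxp3, granule and mitosis states carried the helper ligand more often than the others. Cd40lg was in 23 of the 46 (50.0%), against 12 of the 47 cells with a state (25.5%), and 51.7% of Cd4 class cells with no state. Thinned to 2000 UMIs the Cd40lg shares were 33.3% in the cells with no state and 6.38% in those with one. Icos, a costimulatory receptor of helper T cells, was in 56.5% and 66.0%, and at 2000 UMIs in 42.9% and 38.3%. Maf, a transcription factor of helper cells, was in 43.5% and 42.6%, and at 2000 UMIs in 28.6% and 12.8%. Cxcr6, a chemokine receptor of T cells in tissue, was in 80.4% and 74.5%, and at 2000 UMIs in 69.0% and 48.9%. The cells with no state had a median of 4268 UMIs and those with a state 6837. At 2000 UMIs and without 2-Trbv cells Icos was in 37.0% and 42.3%, so its order depended on the setting, while Maf was in 29.6% and 15.4% and Cxcr6 in 74.1% and 42.3%. Nkg7 was in 63.0% of the no-state cells, against 95.7% of the cells with a state and 51.7% of the no-state Cd4 class cells. Cd8b1 was in 19 of the 46 (41.3%), against 34 of 47 with a state (72.3%) and 7.94% of the no-state Cd4 class cells. At 2000 UMIs Nkg7 was in 61.9% and 91.5% of the cells without and with a state, and Cd8b1 in 38.1% and 61.7%. Without 2-Trbv cells Cd8b1 was in 7 of 31 cells with no state and 16 of 26 with one, and Cd40lg in 11 of 31 and 1 of 26.

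Across all genes, the Cd4-identity Tdp cells were set against the Cd4 class by summed levels. Of 10602 genes with at least 20 UMIs over both classes, 8.92% were at least 1.5-fold higher in the Tdp cells and 13.4% were at least 1.5-fold lower. Of 9 genes of the CD8 lineage, 6 were higher and 1 lower, with a median log2 ratio of 1.29, against 0 over all genes. The higher ones were Cd8b1 and Cd160, Klrd1, Crtam, Cd7 and Eomes. The Tdp class asks for a Cd8a UMI, so higher CD8 genes in this comparison are partly set by the class rule. Crtam, an adhesion receptor of activated CD8 T cells, rested on 7 UMIs in 7 of the 93 cells, and Eomes, a T-box factor of CD8 memory, on 6 UMIs in 5 cells, with a log2 ratio of -0.04 without the 2-Trbv cells. The lower one was Xcl1, a chemokine gene of CD8 T cells, with 4 UMIs in the 93 cells and 258 in the Cd4 class.

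Among genes of the CD4 identity and of regulatory cells, more passed 1.5-fold as lower than as higher. Of 10 helper genes 4 were lower and 1 higher, with a median log2 ratio of -0.30. Among them Cd40lg was at 107 CPM in the Tdp cells and 181 CPM in the Cd4 class, and Maf at 142 and 215 CPM. Of 16 regulatory genes 8 were lower and 0 higher, with a median of -0.58, and of -0.30 against the matched cells. Izumo1r, which encodes folate receptor 4, was at 31.5 and 61.0 CPM. Of 5 granule genes 1 was higher and 1 lower, with a median of 0.08. Of 11 other cytotoxic genes 1 was higher, Nkg7 at 1312 and 811 CPM, with a median of 0.41. None of 15 mitosis genes passed 1.5-fold, and their median was 0.07, and -0.64 against the matched cells.

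Effector genes differed both ways. Of 12 effector cytokine and chemokine genes 5 were higher, Ccl3 and Ccl4 with their single high cell among them, and 4 lower. Ifng, the gene of interferon gamma, was at 119 CPM in the Tdp cells and 62.5 CPM in the Cd4 class. Its higher summed level was not seen as a higher share among cells with no state. At equal depth Ifng was in 4.76% (2 of 42) of such Tdp cells, against 9.23% of such Cd4 class cells. In Tdp cells with a state it was in 8.51% (4 of 47), and the share in Cd4 class cells with a state is not given. Tnf was at 33.2 CPM in the Tdp cells and 58.3 CPM in the Cd4 class. Of 11 inhibitory receptor genes 4 were higher and 0 lower, among them Tox, a factor of exhausted T cells, at 76.9 and 43.7 CPM, and Cd200 at 24.5 and 11.7 CPM. Of 11 naive and memory genes 4 were higher and 0 lower, but the list's median was 0.17 with all cells and -0.29 without the 2-Trbv cells. Ccr7, the lymph node homing receptor, was 1.87-fold higher, and its log2 ratio was -1.37 without the 2-Trbv cells. Of 10 genes of the interferon response 3 were lower and 0 higher, with a median of -0.35, led by Oasl2 at 43.7 and 75.7 CPM and Rsad2 at 45.4 and 76.6 CPM.

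Macrophage and dendritic cell markers had lower summed levels in the Cd4-identity Tdp cells. Of 12 macrophage or monocyte markers 9 were lower, and their sum was 73.4 CPM, against 556 CPM in the Cd4 class. At least 2 UMIs of them occurred in 3.23% of Cd4-identity Tdp cells, against 3.39% of the Cd4 class, with at most 25 and 371 UMIs in a cell. C1qb, Csf1r, Cd14 and Ms4a7 were at 0 in the Tdp cells. The 10 dendritic cell markers summed to 138 CPM and 835 CPM, with at most 42 and 696 UMIs in a cell, and Xcr1, Clec9a, Cd209a and Zbtb46 at 0 in the Tdp cells. At least 2 UMIs of the dendritic cell markers occurred in 7.53% of Cd4-identity Tdp cells, against 5.17% of the Cd4 class, so their summed level and their share of cells ran opposite ways. The B cell markers summed to 26.2 and 16.5 CPM and the endothelial markers to 26.2 and 27.1 CPM. The 7 melanoma markers gave 2 UMIs in the Tdp cells, and the 6 NK cell markers gave 4. Apart from leaving out the cells that held such markers, their part in the level differences was not tested.

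At equal depth the shares of cells named a narrower set of genes. Among 89 Tdp cells and 2245 cells of the Cd4 class thinned to 2000 UMIs, Cd8b1 was in 50.6% and 7.84% (42.7 points apart, 32.5 to 52.9). Nkg7 was in 77.5% and 48.9% (28.6 points, 18.7 to 36.3) and Ccl5 in 68.5% and 41.7% (26.8 points, 16.4 to 35.8). Ly6c2, a surface protein of effector and memory T cells, was in 34.8% and 18.1%, Plac8 in 40.4% and 24.0%, and Cd7 in 27.0% and 11.3%. Slc25a5, a mitochondrial ADP and ATP carrier, was in 69.7% and 53.8%, Ctsd, a lysosomal protease, in 61.8% and 46.4%, Fundc2 in 36% and 20.8%, and Eif3i, a translation initiation subunit, in 51.7% and 36.7%. All these differences had the same direction in hashtag numbers 1, 2 and 4 and without the 2-Trbv cells, where Nkg7 was in 79.2% and 47.8%.

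The genes with lower shares were led by a regulator of receptor signalling. Cd5, which dampens T cell receptor signals, was in 48.3% of Tdp cells, against 65.2% of the Cd4 class (-16.9 points, -27.2 to -6.47). Socs1, a brake on cytokine signalling, was in 14.6% and 30.2%, and Tnfrsf4, which encodes OX40, in 23.6% and 37.2%. Ifitm3, an interferon-induced gene, was in 19.1% and 35.1%, and Odc1, an enzyme of polyamine synthesis, in 28.1% and 41.8%. Subunits of the respiratory chain and ATP synthase were among them: Ndufa3 was in 44.9% and 61.0%, Atp5md in 41.6% and 57.6%, and Cox6c in 60.7% and 73.1%. The others by the same rule were Hmgb1 at 53.9% and 66.2%, Snx3 at 24.7% and 37.5%, Sf3b6 at 22.5% and 35.3%, and Wapl at 7.87% and 19.8%. Summed levels of some of these genes had an interval that holds 1: Ndufa3 0.926-fold, Cox6c 0.929-fold, Hmgb1 0.936-fold, Sf3b6 0.896-fold and Wapl 0.782-fold. The others were lower in summed level too, each with an interval below 1. They were Ifitm3 at 0.492-fold, Socs1 at 0.523, Tnfrsf4 at 0.572, Cd5 at 0.673, Atp5md at 0.7325, Odc1 at 0.737 and Snx3 at 0.774.

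**Figure D5:**
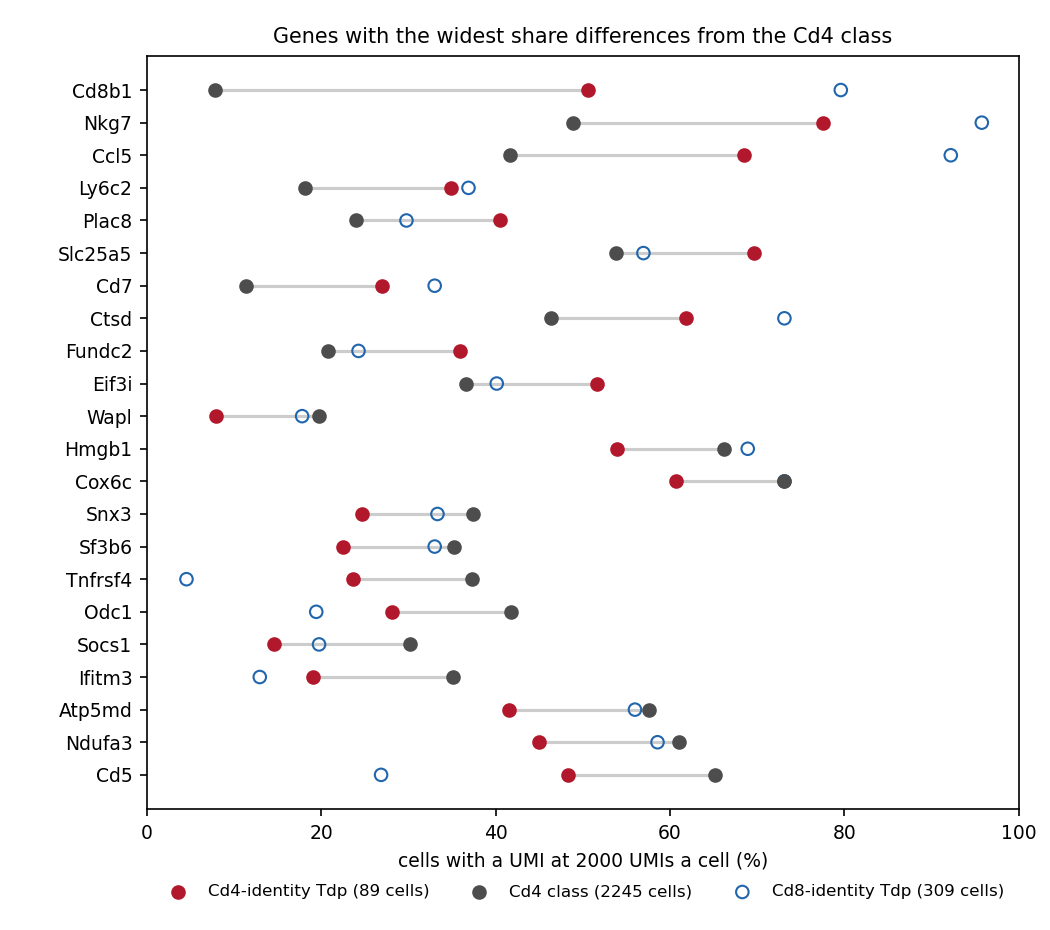
Percentage of cells with a UMI of each gene after thinning to 2000 UMIs, for the genes with the widest differences between Cd4-identity Tdp cells (red) and the Cd4 class (grey), with Cd8-identity Tdp cells as open blue circles. Nkg7 was in 77.5%, 48.9% and 95.8% of the 3 classes in that order, and Cd5 in 48.3%, 65.2% and 26.9%.

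Against the 313 Cd8-identity Tdp cells, which passed the same co-receptor rule, helper and regulatory genes were mostly higher in the Cd4-identity Tdp cells and CD8 lineage genes mostly lower. The identity call alone separates these classes, and no source used here says whether that call used such genes. Of 8121 genes tested, 8.32% were at least 1.5-fold higher and 13.1% at least 1.5-fold lower. Of 9 helper genes 6 were higher and 0 lower, of 10 regulatory genes 8 were higher and 0 lower, and of 9 CD8 lineage genes 7 were lower and 0 higher. The median log2 ratios were 0.76, 1.20 and -1.24, against -0.02 over all genes. Of 15 mitosis genes 10 were lower, but 5 without the 2-Trbv cells. Of 11 other cytotoxic genes 4 were lower, and of 7 tissue residency genes 3 were higher. Klrk1, the NKG2D receptor, was at 54.2 CPM in Cd4-identity and 137 CPM in Cd8-identity Tdp cells, and Klrc1, an NKG2 family receptor, at 50.7 and 130 CPM. Tnfrsf9, the costimulatory receptor 4-1BB, was at 227 and 70.2 CPM. All 6 measured macrophage markers were lower, and the listed 12 summed to 73.4 CPM in Cd4-identity and 422 CPM in Cd8-identity Tdp cells.

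By state, 19.4% of Cd4-identity and 4.47% of Cd8-identity Tdp cells had Foxp3, 35.5% and 43.1% were granule cells, 16.1% and 20.8% were mitosis cells, and 57% and 89.8% had Cd8b1. With 2-Trbv cells left out the shares were 14.0% and 3.16% for Foxp3, 33.3% and 42.3% for granule cells, 12.3% and 19.8% for mitosis cells, and 40.4% and 88.5% for Cd8b1. At 2000 UMIs the granule shares were 19.1% and 20.4%, and 24.5% and 20.5% without 2-Trbv cells as well, so the granule order depended on depth. At 2000 UMIs, Ly6a, the Sca-1 gene, was in 91.0% of Cd4-identity and 62.1% of Cd8-identity Tdp cells (28.9 points apart, 19.5 to 35.9). Pgk1 and Tpi1, which encode enzymes of glycolysis, were in 64.0% and 40.8% and in 48.3% and 29.8%. Icos was in 40.4% and 20.4%, Il7r, the interleukin-7 receptor, in 41.6% and 23.3%, and Glrx, a glutaredoxin, in 46.1% and 22.0%. Lower were Gzmk in 12.4% and 41.4%, Ctsw, a protease of cytotoxic cells, in 47.2% and 66.7%, Klrd1 in 18.0% and 36.6%, and Jak1 in 40.4% and 55.0%. Without the 2-Trbv cells Klrd1 was in 9.43% and 38.2%. Cd5 was in 48.3% and 26.9%, the reverse of its order against the Cd4 class, so its share lay between those of the Cd4 class and the Cd8-identity Tdp cells, as did those of Nkg7 and Ccl5. Also higher by the same rule were Tnfrsf4, Sdf4, Itgb7, Samhd1 and Ass1, and also lower were Cd8b1, Ccl5, Nkg7, Sept1, Smap1, Jpt1 and Hmgb1. The differences of Samhd1, Ass1 and Jpt1 had the same direction in only 2 of the 3 hashtag numbers compared, and those of the others in all 3.

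The hashtag numbers held 25, 38, 9 and 21 of the 93 cells for numbers 1 to 4. Granule cells were 24.0%, 36.8%, 44.4% and 42.9% of the Cd4-identity Tdp cells in these numbers, against 12%, 11.9%, 14.4% and 12% of the Cd4 class, so the order was the same in each. Cd8b1 was in 44.0%, 52.6%, 100% and 61.9%, against 9.32%, 11.1%, 22.8% and 14.1%. Foxp3 was lower in the Tdp cells in numbers 1 to 3, at 16.0%, 15.8% and 11.1% against 24.3%, 18.7% and 22.3%, and higher in number 4, at 33.3% against 24.3%. Mitosis cells were 4%, 15.8%, 44.4% and 19.0%, against 11.0%, 5.69%, 9.90% and 8.88%, so number 1 ran opposite to the others. The share of 2-Trbv cells was 32.0%, 26.3%, 77.8% and 52.4%, against 10.6%, 6.49%, 7.92% and 11.5%. The 9 cells of number 3 were also the deepest, with a median of 9618 UMIs. Tdp cells were deeper than the Cd4 class in every number, with medians of 4244, 4575, 9618 and 6819 UMIs against 3647, 3325, 3372 and 3527. State shares by hashtag number were not compared at equal depth.

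Without the 2-Trbv cells 17, 28, 2 and 10 cells remained in numbers 1 to 4. Granule cells and Cd8b1 then had the same order in each number, with granule cells at 17.6%, 39.3%, 50% and 40% against 11.2%, 11.9%, 14.0% and 10.6% of the Cd4 class. Foxp3 was in 0 of 17, 21.4%, 0 of 2 and 20% of the Cd4-identity Tdp cells, against 24.4%, 18.6%, 21.0% and 23.9% of the Cd4 class, so the order in numbers 2 and 4 turned round. Mitosis cells were 5.88%, 17.9%, 0 of 2 and 10%, against 10.7%, 5.67%, 8.60% and 7.67%.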

How the data were processed

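The RNA table holds UMI counts per gene and cell as the authors deposited them, for 14811 genes and 5564 cells, with 26763131 UMIs in 1 library. The submitters' processing notes name Cell Ranger 3.1.0, Seurat 3.2.3 and mm10. Cell filters and doublet removal by the authors are not given in the sources used here, and no doublet caller was run. Antibody counts were only summed per class, as deposited, and the hashtag and receptor libraries were not analysed here.

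Cells were grouped by the authors' annotation. Levels were compared as summed counts per class (CPM, leaving out 117 receptor genes). Genes with at least 20 UMIs over both classes were called past 1.5-fold, and a class at 0 was set to a floor of 3 counts. Intervals are 95% Clopper-Pearson for shares, Newcombe for differences and exact conditional binomial for ratios. Thinning to 2000 UMIs kept 89 of the 93 cells, 2245 of the Cd4 class and 309 Cd8-identity Tdp cells. Matched cells were the 3 nearest Cd4 class cells by UMI total with the same hashtag number and a Cd4 UMI. Named genes were members of the gene lists and, for each comparison, the 12 with the largest rise and the 12 with the largest fall in thinned share, leaving out receptor, immunoglobulin, mitochondrial, ribosomal and unnamed genes. Cd4 and Cd8a, which define the classes, were selected by that rule and are not discussed. The members and lists were chosen with earlier results of these data known.

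Alternatives were other UMI and gene thresholds, thinning with a second seed, leaving out each hashtag number, 2-Trbv cells or cells with markers of other types, per-cell means, TMM factors (edgeR 4.0.16 in R 4.3.3), a pseudocount and other UMI minimums. Those on differences between classes, on list counts and on Trbv29 were chosen after seeing the data. Python 3.11.15, numpy 2.4.6, scipy 1.17.1, pandas 2.3.3 and matplotlib 3.10.9 were used, and the counting steps were tested on simulated data.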

Additional observations from a re-analysis of the deposited data

Results flagged for a closer look

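A table of 138 antibodies, which no comparison above uses, held a CD4 antibody signal above the limit that a count of 0 allows (3 counts). The Cd4-identity Tdp cells had 5 CD4 antibody counts, in 5 of 93 cells, against 86 in 2477 cells of the Cd4 class, 4 in 313 Cd8-identity Tdp cells and 5 in 2681 cells of the Cd8 class. The CD8a antibody had 0 counts in the Cd4-identity Tdp cells, against 3, 12 and 74 in these classes. All antibodies together gave 75 counts in the 93 cells, so protein could not be read cell by cell.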

How the results depend on the processing

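Of 141 alternatives to 20 results, 111 left the value within its counting interval (for counts of genes, within 1.5 times), 28 moved it further and 2 reversed a difference whose interval excluded 0. The sign also changed in 8 settings of differences whose interval held 0: Foxp3 with granule (4.22) became -5.03 without hashtag number 1 and -1.05 with a second thinning seed, Foxp3 with mitosis (-13.1) became 0.255 without 2-Trbv cells, the Foxp3 difference (-3.05) became 1.43 in matched cells and 0.151 without Trbv29 cells, and the other 3 are given below. The cause was not tested except where the setting itself uses fewer cells, genes or UMIs. Thinning to 2000 UMIs gave a Foxp3 share of 11.2%, a granule share of 19.1% with either seed and a granule difference of 11.8 points, and without 2-Trbv cells as well a Foxp3 difference of -10.1 and a Cd8b1 difference of 28.6 points. Without 2-Trbv cells the Cd8b1 share was 40.4% and its difference 29.2 points. In matched cells the mitosis difference reversed to -2.51 points, and without 2-Trbv cells to -5.42, where the granule difference was 12.8 and the Cd8b1 difference 30.9 points. Leaving out cells with any UMI of 2 Trbv genes gave a Foxp3 share of 7.14%, a Cd8b1 share of 31.0%, and differences of -33.3 for Foxp3 with granule and 23.1 for Foxp3 with mitosis. Asking 2 UMIs per gene gave a granule share of 15.1%, the same as asking 3 granule genes, and differences of -17.9 for Foxp3 with granule and 0.972 for granule with Cd8b1. The 2-Trbv share was 54.8% at 1 UMI and 28.0% at 3 UMIs of each gene. The Trbv29 share was 23.2% with 2-Trbv cells kept, and 9.09% to 54.5% when each hashtag number was left out, lowest without number 2.

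Genes past 1.5-fold against the Cd4 class numbered 2364, but 1423 with a pseudocount of 5 CPM and 1266 at a minimum of 100 UMIs. The higher ones were 40.0% of them, 28.9% and 29.9% under those settings and 54.3% with no minimum. Against Cd8-identity Tdp cells the count was 1739, and 1119, 270 and 3373 with the pseudocount, the minimum of 100 and no minimum; the higher ones were 38.9%, and 54.6% with no minimum. Mitosis genes lower there numbered 10, and 5 without 2-Trbv cells. No paired analysis was possible because there is 1 RNA library and no result comes from a test. With 93 cells, 18 of them with Foxp3, depth and cell number limit every pair of states.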
